A study of Homo sapiens with 2 samples.

Results

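The 8 genes described here encode chains of the interstitial fibrillar collagens (COL1A1, COL1A2, COL3A1, COL5A1, COL5A2 and COL11A1), of the short-chain collagen VIII (COL8A1) and of the fibril-associated collagen XII (COL12A1). They were taken by symbol from 19362 genes in the deposited table, and all 8 had a mean of at least 1 CPM (the counts-per-million unit, which scales reads to the library total), as did 14815 genes in all. RNA sequencing compared FTC-133 cells given CHI3L1 siRNA (1 library) with FTC-133 cells given control siRNA (1 library). FTC-133 is a human line grown from a follicular thyroid cancer, and CHI3L1 encodes a secreted chitin-binding glycoprotein also called YKL-40. The labels and notes used here state no siRNA sequence, no time after transfection and no number of cultures behind a library. Each group being a single library, there is no replicate check and no test, and effects of culture, library and siRNA cannot be told apart. The 8 genes were chosen by the levels and folds of collagen genes in these same libraries, so their folds are a description.

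Fibrillar collagens form the rope-like fibres of connective tissue. Each chain carries a long run with glycine at every 3 residues, and 3 such chains wind into a triple helix. Type I collagen combines COL1A1 and COL1A2 chains, type III is made of COL3A1 chains alone, and the minor types V and XI (COL5A1, COL5A2, COL11A1) set the start and the width of fibrils. Collagen VIII has a short helix and builds networks, and collagen XII lies on the surface of fibrils and has short helices between large non-helical domains. Fibroblasts are the main source of fibrillar collagen, and carcinoma cells with mesenchymal traits can also express it.

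The glycine repeat can be read in the coding sequences, where GGN is the glycine codon. The first 45 bases of the longest uninterrupted run with GGN at every 3 codons in the annotated transcript of each gene (GENCODE release 29) are shown because they show what these chains have in common. Capitals mark the GGN codon that opens each repeat of 3 codons.
COL1A1: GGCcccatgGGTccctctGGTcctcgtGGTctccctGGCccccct
COL1A2: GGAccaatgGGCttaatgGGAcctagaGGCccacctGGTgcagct
COL3A1: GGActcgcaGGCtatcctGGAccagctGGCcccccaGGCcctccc
COL5A1: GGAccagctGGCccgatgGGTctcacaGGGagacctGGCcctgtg
COL5A2: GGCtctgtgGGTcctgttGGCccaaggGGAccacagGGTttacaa
COL11A1: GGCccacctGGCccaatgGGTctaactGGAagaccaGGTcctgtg
COL8A1: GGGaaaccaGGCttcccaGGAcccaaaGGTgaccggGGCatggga
COL12A1: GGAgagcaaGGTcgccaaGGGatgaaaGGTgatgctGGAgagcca

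The run held 338 repeats in COL1A1, COL5A1 and COL11A1, 339 in COL1A2 and COL5A2, and 343 in COL3A1. It covered codons 179 to 1192 of 1465 in COL1A1, which is 69.2% of the coding sequence. In COL8A1 the longest run had 61 repeats (24.6% of codons) and in COL12A1 it had 32 (3.13%), so the last of these transcripts has little of the repeat that marks the other 7. COL5A1 and COL11A1 open their run with closely similar codons, as the printed lines show. The annotated transcripts were between 5411 nt (COL1A2) and 11723 nt (COL12A1) long, against a median of 3146 nt over the tested coding genes.

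The siRNA target itself was lower in the library it names. CHI3L1 (chromosome 1, 203178931 to 203186749) stood at 48.6 CPM in the CHI3L1 siRNA library and 140 CPM in the control siRNA library, a ratio of 0.347 with a 95% exact counting interval of 0.321 to 0.374. The depth was 19467345 reads in the CHI3L1 siRNA library and 15837449 in the control siRNA library, recovered from the CPM values. All intervals here cover counting error only, and the sources describe no molecular identifiers, without which reads are not independent molecules. Folds across coding genes followed transcript length (Spearman rho 0.46 over 12660 genes, a description across genes of the same 2 libraries). Folds of the collagen genes, whose transcripts are long, are therefore also set against genes of like length and given after a correction for length and GC content. Of the thyroid markers, PAX8 and NKX2-1 stood between 71.2 and 112 CPM in the 2 libraries. TSHR stood between 8.73 and 9.23 CPM, HHEX between 3.16 and 3.49 CPM and TG between 0.63 and 0.72 CPM. SLC5A5 was not analysed here.

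Collagen RNA was higher in the CHI3L1 siRNA library. The 8 genes together took 1.05% of all reads in the CHI3L1 siRNA library (95% exact interval 1.05% to 1.05%) and 0.442% in the control siRNA library (0.438% to 0.445%). Of the 8, 6 were 2-fold or more higher and 0 lower by that much, where log2 folds are of CHI3L1 siRNA over control siRNA with 1 CPM added to each. Across the tested genes, 1.03% (153) passed 2-fold upward and 4.41% (654) downward. The upward ones made up 19.0% of all that passed. Among coding genes, to which the correction applies, that share was 20.7% by deposited folds and 42.7% by corrected folds. The median log2 fold was 1.27 over the 8 genes and 0.01 over all tested genes. In a bulk library more cells that make a transcript and more of it per cell cannot be told apart.

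Both chains of type I collagen were higher. COL1A2 (ENSG00000164692; plus strand of chromosome 7, 94394561 to 94431232 in GRCh38; 52 exons in the annotated transcript) had 4959 CPM in the CHI3L1 siRNA library and 1814 CPM in the control siRNA library. Its ratio was 2.73 (2.70 to 2.77), and its log2 fold of 1.45 ranked 16 among all tested genes. COL1A1 (ENSG00000108821; minus strand of chromosome 17, 50183289 to 50201632; 51 exons) had 1429 CPM in the CHI3L1 siRNA library and 642 CPM in the control siRNA library. Its ratio was 2.23 (2.18 to 2.28), lower than that of its partner, and the counting intervals did not overlap.

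COL3A1, the single chain of type III collagen, which accompanies type I in soft tissues, was expressed at a far lower level. It had 724 reads (37.1 CPM) in the CHI3L1 siRNA library and 285 reads in the control siRNA library. The CPM ratio was 2.06 (1.79 to 2.37). Its log2 fold of 1.00 lay at the 2-fold limit, and the interval reaches below 2. COL3A1 (ENSG00000168542) lies on the plus strand of chromosome 2 from 188974320 to 189012746. Its end faces that of COL5A2 on the opposite strand, 19150 bases away.

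The minor fibrillar chains differed among themselves. COL11A1 (ENSG00000060718; minus strand of chromosome 1, 102876467 to 103108872), a chain known from cartilage and from carcinomas, had 1211 CPM in the CHI3L1 siRNA library and 446 CPM in the control siRNA library. The ratio was 2.72 (2.64 to 2.79). COL5A2 (ENSG00000204262; minus strand of chromosome 2, 189031896 to 189225312) had 564 CPM in the CHI3L1 siRNA library and 215 CPM in the control siRNA library, a ratio of 2.62 (2.52 to 2.72). COL5A1 (ENSG00000130635; plus strand of chromosome 9, 134641774 to 134844843) had 1605 CPM in the CHI3L1 siRNA library and 1011 CPM in the control siRNA library, a ratio of 1.59 (1.56 to 1.62). It was thus the fibrillar chain with the smallest ratio of the 6, although it encodes the partner of COL5A2 in type V collagen. Its log2 fold was 0.67, past 1.5-fold but not 2-fold. At 1.5-fold, 7 of the 8 genes were higher and 0 lower, against 7.73% and 13.4% of all tested genes.

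The 2 non-fibrillar genes stood at opposite ends. COL8A1 (ENSG00000144810; plus strand of chromosome 3, 99638475 to 99799226), a chain of the hexagonal networks below endothelia, had 649 CPM in the CHI3L1 siRNA library and 247 CPM in the control siRNA library, a ratio of 2.63 (2.54 to 2.72). COL12A1 (ENSG00000111799; minus strand of chromosome 6, 75084326 to 75206051) had 626 reads (32.1 CPM) in the CHI3L1 siRNA library and 470 reads (29.7 CPM) in the control siRNA library. The CPM ratio was 1.08 (0.957 to 1.22), an interval that holds 1, and a difference was not detectable at this depth. COL1A2, COL11A1, COL8A1 and COL5A2 thus lay in a narrow band of ratios between 2.62 and 2.73. COL1A1, COL3A1, COL5A1 and COL12A1 lay below it.

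**Figure D1:**
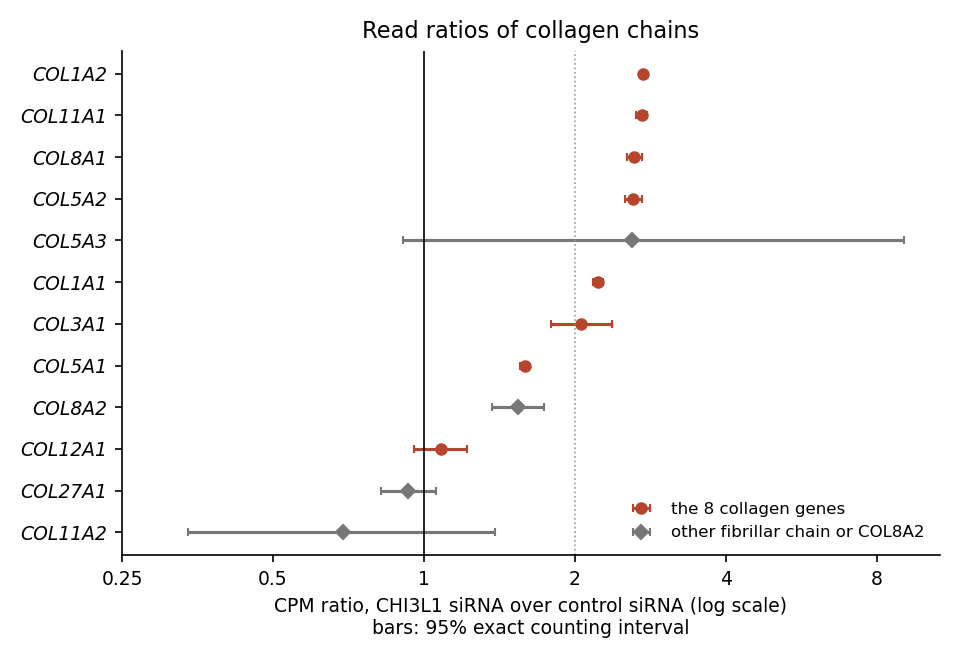
CPM ratio of CHI3L1 siRNA over control siRNA for the 8 collagen genes (circles) and for the other measured fibrillar chains and COL8A2 (diamonds), on a log axis with 95% exact counting intervals. COL1A2, COL11A1, COL8A1 and COL5A2 lie between 2.62 and 2.73, and COL12A1, COL27A1, COL11A2 and COL5A3 have intervals that hold 1.

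Levels of different genes are compared per kilobase of annotated transcript. In the CHI3L1 siRNA library COL1A2 was the most abundant of the 8 at 916 CPM per kb, followed by COL1A1 (212), COL5A1 (189), COL11A1 (167), COL8A1 (114), COL5A2 (79.6), COL3A1 (6.70) and COL12A1 (2.74). In the control siRNA library COL1A2 also led, at 335 CPM per kb, but COL5A1 (119) stood above COL1A1 (95.5). The order of the other 5 was the same in both libraries. COL5A1 took 15.3% of the reads of the 8 genes in the CHI3L1 siRNA library (15.1% to 15.5%) and 22.9% in the control siRNA library (22.5% to 23.2%), while COL1A2 took 47.3% (47.1% to 47.5%) in the CHI3L1 siRNA library and 41.0% (40.6% to 41.4%) in the control siRNA library.

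**Figure D2:**
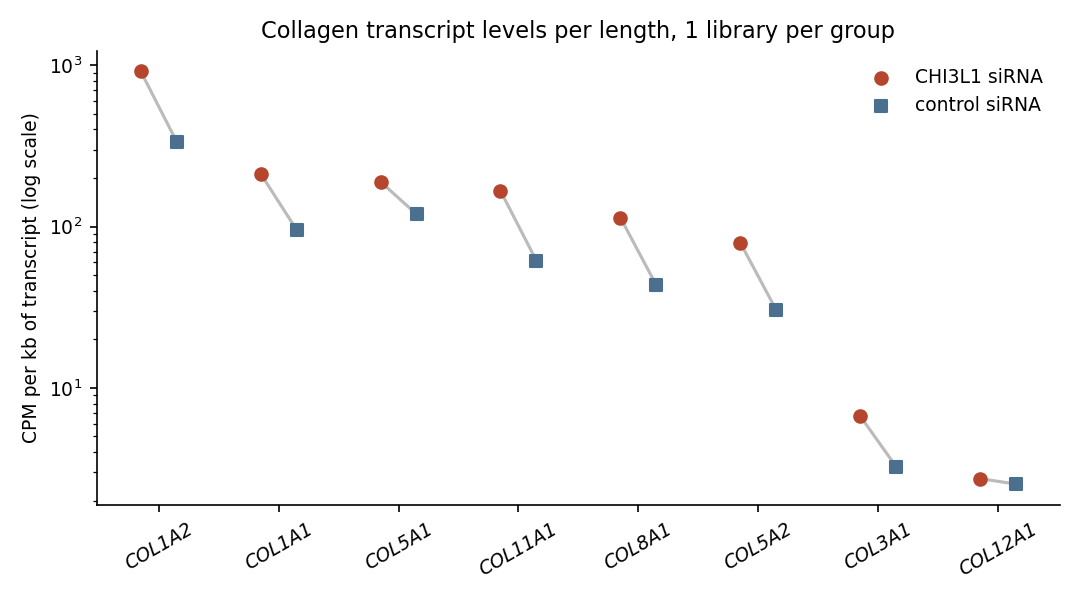
CPM per kilobase of annotated transcript (log axis) of the 8 collagen genes in the CHI3L1 siRNA library (circles) and the control siRNA library (squares), 1 library per group, with no error bars. COL1A2 is highest and COL12A1 lowest in both, at 916 and 2.74 CPM per kb with CHI3L1 siRNA and at 335 and 2.54 CPM per kb with control siRNA.

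Ratios between chain partners do not depend on the scaling of the libraries. In type I collagen, COL1A1 over COL1A2 was 0.232 per kb in the CHI3L1 siRNA library and 0.285 in the control siRNA library, a ratio of ratios of 0.814 (0.793 to 0.836). There were thus fewer COL1A1 reads than COL1A2 reads per length in both libraries, and relatively fewer in the CHI3L1 siRNA library. The type I heterotrimer holds more COL1A1 than COL1A2 chains, but reads per annotated length are RNA values, and protein chains were not measured. COL5A1 over COL5A2 was 2.38 per kb in the CHI3L1 siRNA library and 3.92 in the control siRNA library, a ratio of ratios of 0.607 (0.581 to 0.634). COL11A1 over COL5A2, which can share a trimer in mixed V/XI fibrils, was 2.10 in the CHI3L1 siRNA library and 2.02 in the control siRNA library. Their ratio of ratios was 1.04 (0.991 to 1.09), so the proportion of these 2 chains did not differ beyond counting error.

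Other possible partners were scarce or had smaller ratios. COL8A2, the second chain of collagen VIII, had 42.6 CPM in the CHI3L1 siRNA library and 27.7 CPM in the control siRNA library, a ratio of 1.54 (1.37 to 1.73), and COL8A2 over COL8A1 had a ratio of ratios of 0.586 (0.518 to 0.663). COL11A2, the second chain of type XI, had 17 reads in the CHI3L1 siRNA library and 20 in the control siRNA library, and COL5A3 had 16 in the CHI3L1 siRNA library and 5 in the control siRNA library. These counts are too few to tell the libraries apart for either gene. COL27A1, a fibrillar chain of cartilage, had 27.6 CPM in the CHI3L1 siRNA library and 29.7 CPM in the control siRNA library, a ratio of 0.930 (0.820 to 1.05). COL2A1 and COL24A1 were not analysed here. A higher level was therefore not found for every fibrillar collagen gene measured.

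Against genes of like transcript length most of the 8 still stood high. For each gene, the 500 tested coding genes nearest to it in transcript length were taken as a description. Their median log2 fold lay between 0.23 (near COL1A2) and 0.36 (near COL12A1), so long transcripts as a class were slightly higher in the CHI3L1 siRNA library. Among 3024 other tested coding genes of at least 5000 nt, 1.85% were at least 2-fold higher. Of the 8 genes, 6 lay above the 95th percentile of their length neighbours, with 0 of 500 neighbours higher for COL1A2, 1 for COL5A2, 1 for COL11A1, 2 for COL8A1, 4 for COL1A1 and 9 for COL3A1. COL5A1 had 65 of 500 neighbours above it. COL12A1 had 391, and at 0.11 its log2 fold was 0.26 below the median of its neighbours.

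**Figure D3:**
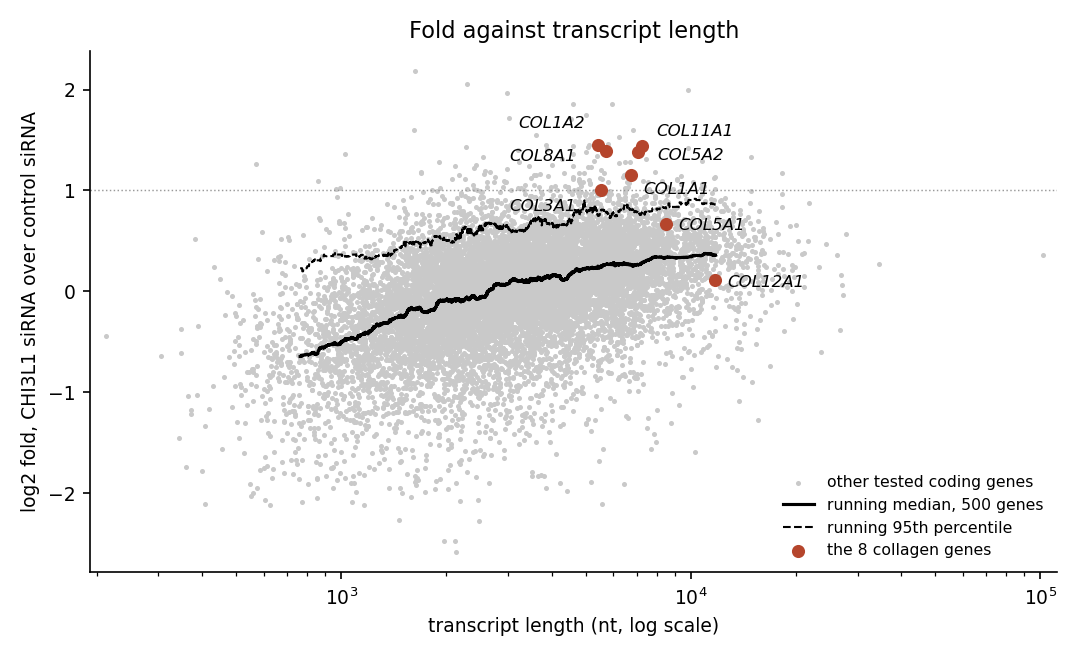
Log2 fold of CHI3L1 siRNA over control siRNA against transcript length (log axis) for tested coding genes (grey) and the 8 collagen genes (red), with the running median and 95th percentile over 500 genes. The dotted line marks 2-fold, and 6 of the 8 genes lie above the percentile line, COL5A1 between the lines and COL12A1 under the median.

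A spline trend in the length, GC content and coding length of the transcripts, subtracted from the folds, lowered all 8 values. After it, 3 of the 8 genes were at least 2-fold higher (COL1A2 1.06, COL8A1 1.05 and COL11A1 1.01), against 1.08% of tested coding genes. At 1.5-fold, 6 of 8 were higher, against 6.49%, with COL5A2 at 0.95, COL1A1 at 0.74 and COL3A1 at 0.60. COL5A1 then had a corrected log2 fold of 0.20 and COL12A1 one of −0.35, which turned its direction. The part of transcript length in the deposited folds was not tested beyond these values.

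Other collagens were mixed. Of 30 further collagen genes, 18 passed the mean filter, with a median log2 fold of 0.46 (0.14 after the correction). Of the 18, 7 were at least 1.5-fold higher and 0 lower, and 2 of the 7 were past 2-fold. By corrected folds 2 were at least 1.5-fold higher and 3 lower. For this list and the later ones, the matching 1.5-fold shares over the whole tested set were 7.73% upward and 13.4% downward. By corrected folds the upward share among coding genes was 6.49%. The downward share by corrected folds was not counted at 1.5-fold, so corrected counts of lower genes stand without one. The 13.4% does not match them, as the correction took the coding genes at least 2-fold lower from 547 to 184. COL6A3, the large chain of the beaded filaments, had 11.5 CPM in the CHI3L1 siRNA library and 4.11 CPM in the control siRNA library. COL14A1, a fibril-associated relative of COL12A1, had 263 CPM in the CHI3L1 siRNA library and 129 CPM in the control siRNA library, a ratio of 2.04 (1.94 to 2.15), unlike COL12A1 itself. The basement membrane chain COL4A1 had a log2 fold of 0.80 (corrected 0.36) and COL15A1 one of 0.87 (corrected 0.48), so neither passed 1.5-fold after the correction.

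Most enzymes and chaperones that fold procollagen in the endoplasmic reticulum were higher. All 22 genes of this list passed the mean filter, 15 were higher by 1.5-fold or more and 1 was lower by as much, with a median log2 fold of 0.75, and 14 were 1.5-fold or more higher by corrected folds (median 0.67). Prolyl 4-hydroxylases make the hydroxyproline that holds the helix together. Their subunit P4HA3 had 56.3 CPM in the CHI3L1 siRNA library and 20.3 CPM in the control siRNA library, a ratio of 2.77 (2.45 to 3.15), and P4HA2 had 456 CPM in the CHI3L1 siRNA library and 204 CPM in the control siRNA library, a ratio of 2.24 (2.15 to 2.33). The disulfide isomerase PDIA3 had a log2 fold of 0.99 and the collagen galactosyltransferase COLGALT2 one of 0.96. SERPINH1, the collagen chaperone HSP47, which was named after its values were seen, had 980 CPM in the CHI3L1 siRNA library and 562 CPM in the control siRNA library. The 1 lower gene, also named after its values were seen, was TMEM38B (log2 fold −0.72, corrected −0.22), an ion channel of the endoplasmic reticulum. By corrected folds 0 genes of this list were lower by 1.5-fold or more.

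Genes for export of procollagen differed little. Of 12 genes for the transport of large cargo out of the endoplasmic reticulum, 0 were at least 1.5-fold higher or lower, and the median log2 fold was 0.31. The largest folds were of SEC24D (0.53), LMAN1 (0.53) and MIA3 (0.53), whose product TANGO1 loads procollagen into carriers, and of SEC16A (0.38).

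Outside the cell, LOX, LOXL2 and BMP1 were higher. Of 12 measured genes for processing and cross-linking, 3 were at least 1.5-fold higher and 0 lower, with a median log2 fold of 0.18. By corrected folds 2 were higher and 2 lower, with a median of 0.02, and the corrected log2 folds were 1.49 for LOX, 0.83 for LOXL2, 0.40 for BMP1 and −0.74 for ADAMTS3. LOX, which oxidises lysines of collagen for cross-links, had 654 CPM in the CHI3L1 siRNA library and 239 CPM in the control siRNA library, a ratio of 2.73 (2.64 to 2.84), and LOXL2 had 607 CPM in the CHI3L1 siRNA library and 292 CPM in the control siRNA library. BMP1, the protease that cuts off C-propeptides, had a ratio of 1.59 (1.53 to 1.65). ADAMTS3, an N-propeptidase, had 36 reads in the CHI3L1 siRNA library and 47 in the control siRNA library, a ratio of 0.621 (0.391 to 0.980), which the 1 CPM added brings within 1.5-fold.

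Among 10 measured genes for proteins that organise fibrils, 4 were at least 1.5-fold higher (3 by corrected folds) and 0 lower. These were FN1 (log2 fold 1.19), SPARC (0.93), THBS2 (0.64, corrected 0.22) and the small proteoglycan BGN, which had 54.1 CPM in the CHI3L1 siRNA library and 22.6 CPM in the control siRNA library. Of 9 measured receptor genes, 6 were at least 1.5-fold higher (4 by corrected folds) and 0 lower, and the median was 0.68 (0.37 after the correction). The collagen receptor subunits ITGA1 and ITGA2 had log2 folds of 0.97 and 0.87, and ITGA1 had few reads (156 in the CHI3L1 siRNA library and 57 in the control siRNA library). The fibronectin receptor ITGA5 and ITGAV had log2 folds of 1.03 and 0.74.

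Genes for the breakdown of collagen, with proteases and their inhibitors counted together, had a median log2 fold of 0.39 (0.33 after the correction). Of 12 measured genes, 2 were at least 1.5-fold higher and 2 lower, and by corrected folds 4 were higher and 1 lower. The 2 lower ones by deposited folds, MMP1 and MMP13, had low means over the libraries, of 4.81 and 1.56 CPM. The interstitial collagenase MMP1 had 15 reads in the CHI3L1 siRNA library and 140 in the control siRNA library, a ratio of 0.0869 (0.0474 to 0.148), and the collagenase MMP13 had 20 reads in the CHI3L1 siRNA library and 33 in the control siRNA library. MMP13 had a log2 fold of −0.61 and a corrected one of −0.32. The inhibitor TIMP3 had a log2 fold of 1.86 and the gelatinase MMP2 one of 0.84, at 1612 CPM in the CHI3L1 siRNA library and 898 CPM in the control siRNA library.

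**Figure D4:**
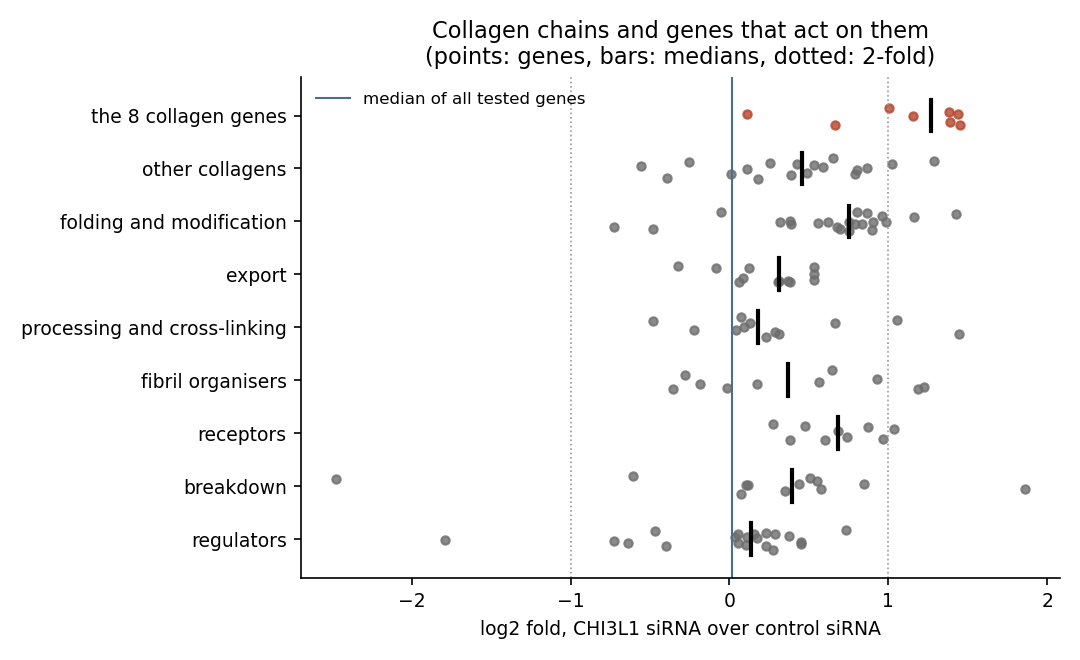
Log2 fold of CHI3L1 siRNA over control siRNA for the 8 collagen genes (red) and for measured genes of 8 lists (grey points), with list medians (bars), the median of all tested genes (blue line) and 2-fold limits (dotted). The median is 1.27 for the 8 genes and next highest for folding and modification, at 0.75.

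Regulators of collagen genes showed no common direction. Of 20 genes, 1 passed 1.5-fold upward and 3 downward, close to the 7.73% and 13.4% seen over the whole tested set. The median log2 fold of the list was 0.13. NFYB, a subunit of the NF-Y factor that binds CCAAT boxes in collagen promoters, had 21.6 CPM in the CHI3L1 siRNA library and 77.3 CPM in the control siRNA library, a ratio of 0.280 (0.25 to 0.313). CREB3L1, a membrane-bound factor that in mouse bone activates type I collagen transcription, had 132 CPM in the CHI3L1 siRNA library and 79.2 CPM in the control siRNA library. CCN2, a target of TGF-beta and YAP, and the nucleic acid binding protein YBX1 had log2 folds of −0.72 and −0.64, and corrected ones of −0.72 and −0.47.

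Promoter sequence was at hand for 3 of the 8 genes (RefSeq, GRCh38.p14): COL11A1 from the narrow band of high ratios, COL5A1 from below it and COL12A1, which hardly differed. They are shown because their read ratios run from 2.72 (COL11A1) to 1.08 (COL12A1), and windows of the other members were not at hand. The 250 bases before the start are written 5′ to 3′ on the gene's strand, with capitals for matches on either strand. The RefSeq starts differ from the GENCODE gene bounds given above: the COL11A1 window lies wholly inside the GENCODE gene, 29 bases of the COL5A1 window do, and 0 of the COL12A1 window. The motifs searched were CCAAT, bound by NF-Y, the TATA box TATAAA, the SP1 motif GGGCGG, the SMAD motif CAGAC, and the cores of hypoxia response elements, which are written ACGTG or else as GCGTG. COL11A1 is chr1:103108523-103108772, minus strand, COL5A1 is chr9:134641553-134641802, plus strand, and COL12A1 is chr6:75206054-75206303, minus strand.
COL11A1: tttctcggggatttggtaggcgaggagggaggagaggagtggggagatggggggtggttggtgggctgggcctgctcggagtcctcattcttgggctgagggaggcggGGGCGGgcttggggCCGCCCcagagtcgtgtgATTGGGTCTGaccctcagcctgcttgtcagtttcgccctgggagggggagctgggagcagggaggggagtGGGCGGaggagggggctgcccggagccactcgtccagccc
COL5A1: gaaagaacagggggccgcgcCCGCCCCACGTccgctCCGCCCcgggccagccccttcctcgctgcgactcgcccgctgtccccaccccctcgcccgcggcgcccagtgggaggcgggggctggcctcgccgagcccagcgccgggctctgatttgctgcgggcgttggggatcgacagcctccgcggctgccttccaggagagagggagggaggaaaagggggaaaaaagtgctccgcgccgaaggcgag
COL12A1: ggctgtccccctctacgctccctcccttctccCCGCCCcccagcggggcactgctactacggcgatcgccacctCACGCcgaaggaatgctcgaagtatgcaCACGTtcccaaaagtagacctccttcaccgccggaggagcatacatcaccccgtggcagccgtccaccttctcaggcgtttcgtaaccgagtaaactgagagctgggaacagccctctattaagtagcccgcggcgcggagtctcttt

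COL11A1 held 1 CCAAT match (as ATTGG) that adjoins 1 CAGAC match (as GTCTG), and 3 GGGCGG matches. COL5A1 held 2 GGGCGG matches and 1 ACGTG match, and COL12A1 held 1 GGGCGG, 1 ACGTG and 1 GCGTG match. None of these 3 windows held TATAAA. Of 27305 promoter windows of the same length, 33.0% held CCAAT, 42.3% GGGCGG, 37.8% CAGAC, 18.7% ACGTG, 31.9% GCGTG and 11.1% TATAAA. A match is a description of letters and not a binding site.

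Several collagens are textbook targets of the miR-29 family, whose members share the seed at bases 2 to 8, in capitals below (RefSeq, GRCh38.p14). No small RNA was measured here. They are shown because their complement, TGGTGCT, recurs after the stop codon of the collagen transcripts.
hsa-miR-29a-3p: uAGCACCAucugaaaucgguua
hsa-miR-29b-3p: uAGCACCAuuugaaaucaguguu
hsa-miR-29c-3p: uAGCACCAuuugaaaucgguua
Of the 8 genes, 7 held at least 1 TGGTGCT after the stop codon, 12 matches in all, 8 of them followed by A. One match each is shown for COL1A1 (base 923 after the stop), COL1A2 (base 520), COL3A1 (base 682, the second of 2) and COL5A1 (base 1413, the third of 4), with TGGTGCT in capitals.
COL1A1: agggaatcacTGGTGCTatagaaattg
COL1A2: agaatgttgaTGGTGCTagaagaattt
COL3A1: acgcatgttaTGGTGCTaatgtacttt
COL5A1: tgaatgtttgTGGTGCTaatttctgtg

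COL12A1 held no match in 2221 bases, and COL5A1, with the smallest ratio of the 6 fibrillar chains among the 8 genes, held 4 in 2540 bases. Of the fibrillar chains outside the 8, COL27A1 (ratio 0.930) held 1 match and COL5A3 held 3. Of 12652 other tested coding genes, 14.6% held at least 1 match and 2.39% at least 2. Among genes of like length after the stop codon, the share with at least 1 match ran from 8% (near COL1A2) to 28.8% (near COL8A1). The share with at least 2 ran from 0.4% to 5% near the same 2 genes. Over all 12652 other tested coding genes, the log2 folds had medians of 0.22 with 2 or more matches (303 genes), 0.14 with 1 match and 0.03 with none. Their transcripts had median lengths of 6251, 4585 and 2926 nt in that order, and the corrected log2 folds had medians of 0.00, 0.03 and 0.03.

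Markers of cell types did not share 1 direction. Of 4 measured epithelial markers, 1 was at least 1.5-fold higher and 0 lower. The ratios were 1.98 (1.29 to 3.08) for EPCAM, 1.48 (0.794 to 2.85) for CDH1, 1.08 (0.984 to 1.18) for KRT8 and 0.783 (0.690 to 0.890) for KRT18. Of 3 measured endothelial markers, 0 were higher and 1 lower by that much. Their ratios were 0.517 (0.381 to 0.699) for PECAM1, 1.64 (1.11 to 2.48) for KDR and 1.30 (0.755 to 2.30) for VWF. Apart from KRT8 and KRT18, these genes had few reads. The 9 fibroblast and smooth muscle markers summed to 4281 CPM in the CHI3L1 siRNA library and 3414 CPM in the control siRNA library, and 1 of 8 measured was at least 1.5-fold higher (2 by corrected folds) and 0 lower. ACTA2, the smooth muscle actin, had 102 CPM in the CHI3L1 siRNA library and 55.4 CPM in the control siRNA library, a ratio of 1.84 (1.70 to 1.995). VIM, the intermediate filament of mesenchymal cells, had 2282 CPM in the CHI3L1 siRNA library and 1534 CPM in the control siRNA library, a ratio of 1.49 (1.46 to 1.51), while LUM had a ratio of 0.776 (0.703 to 0.857). ACTA2 and VIM thus went the way of the collagens, with corrected log2 folds of 1.05 for ACTA2 and 0.61 for VIM. The corrected log2 folds were 0.11 for LUM, whose direction turned, and −0.04 for POSTN. FAP and PDGFRB had ratios of 1.07 (1.03 to 1.12) and 1.11 (0.862 to 1.42). PDGFRA had 2 reads in the CHI3L1 siRNA library and 9 in the control siRNA library, and PTPRC, a marker of immune cells, had 8 reads in the CHI3L1 siRNA library and 12 in the control siRNA library. DCN stood at 1.49 CPM in the CHI3L1 siRNA library and 1.20 CPM in the control siRNA library. THY1 (745 CPM in the CHI3L1 siRNA library and 558 CPM in the control siRNA library) and POSTN (863 CPM in the CHI3L1 siRNA library and 983 CPM in the control siRNA library) were well expressed in both libraries. The part of such cells in the collagen values was not tested.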

How the data were processed

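The deposited table gives CPM for both libraries. Each value equals whole reads with 0.001 added, multiplied by what 1 read is worth in that library (0.0513 CPM per read for CHI3L1 siRNA, 0.0632 for control siRNA). All values gave whole reads within 0.01 read. These reads were used for depths, read counts, shares of reads, ratios and counting intervals, and log2 folds used the CPM values. A count of 0 allows up to 3 reads (0.154 CPM for CHI3L1 siRNA, 0.190 CPM for control siRNA). Tools named in the submitters' processing notes are Trimmomatic, FastQC, HISAT2, MultiQC and featureCounts, and the build is GRCh38, without versions or order. Nothing used here names the normalisation tool, annotation, strand setting or low-count filter. Every gene listed had at least 6 reads in 1 library.

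Ensembl identifiers were matched to symbols (19265 matched), and coordinates and 1 transcript per gene (principal, best supported, then longest) from GENCODE release 29. None of the 8 genes shares exon bases with another gene of the table. Log2 folds used a pseudocount of 1 CPM, which understates differences of low genes, and genes whose mean reached 1 CPM. Called means past a fixed fold, with no p-value. Ratios have 95% exact conditional intervals. The correction used splines with 5 degrees of freedom per term, fitted to 12534 coding genes outside the lists, and took up 36.1% of the variance. Steps were tested on simulated data (Python 3.11.15, scipy 1.17.1, patsy 1.0.2). Named genes are the 8, CHI3L1, other fibrillar chains, COL8A2 and the 4 largest absolute folds in each list. TG, PDGFRA, PDGFRB, DCN, FAP, POSTN, PTPRC and neighbouring genes fall outside this rule and were chosen after their values were seen. Members and lists were chosen with earlier results of these data known.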

Additional observations from a re-analysis of the deposited data

How the results depend on the processing

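The 2 libraries were also compared with pseudocounts of 0.5 and 10 CPM, equal totals, a trimmed mean of log ratios, centring on genes from 50 CPM upward, and the length and GC correction. Other neighbour sets (merged exon length, 100 nearest genes) were chosen after seeing the data, and 6 of the 8 collagen genes lay above the 95th percentile under each. All 8 stayed higher in the CHI3L1 siRNA library under each setting except COL12A1, at −0.35 after the correction. COL3A1 fell under 2-fold with 10 CPM (0.75) and after centring (0.90), which shifted the median of all tested genes by −0.10. The count at least 2-fold higher was 3 of 8 after the correction and 0 at 3-fold. The median log2 fold of the 8 was 1.27 with a pseudocount of 0.5 CPM, with equal totals and with the trimmed mean, 1.24 with 10 CPM, 1.17 after centring and 0.85 after the correction. CHI3L1 had −1.36 with 10 CPM. Genes at least 2-fold higher numbered 199 with a pseudocount of 0.5 CPM, 53 with 10 CPM and 93 after centring. They numbered 101 at a mean of at least 10 CPM, 84 with intervals wholly beyond 2-fold, 1145 at 1.5-fold and 12 at 3-fold. Genes lower numbered 767 with a pseudocount of 0.5 CPM, 327 with 10 CPM, 851 after centring, 1988 at 1.5-fold and 135 at 3-fold. They numbered 184 after the correction, which covers coding genes alone (547 of these were lower and 143 higher without it). These settings change the folds, the limit or the set of genes by construction. No paired analysis was possible because each group has 1 library, and no replicate could be left out. Depth limits the values of COL3A1, COL12A1, COL5A3 and COL11A2.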

Other observations

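Coding genes that adjoin a collagen gene on the chromosome went both ways. BET1, 390179 bases from COL1A2, had 110 CPM in the CHI3L1 siRNA library and 214 CPM in the control siRNA library. WDR75, 216121 bases from COL5A2, had 39.2 CPM in the CHI3L1 siRNA library and 95.6 CPM in the control siRNA library, and CMSS1, 18608 bases from COL8A1, had a log2 fold of −0.95. RXRA next to COL5A1 had a log2 fold of 0.55 and DCBLD2 on the other side of COL8A1 one of 0.29. COL12A1, which hardly differed, lies between CD109 (log2 fold 1.11, 1256010 bases away) and COX7A2 (−1.67, 31624 bases away).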
